A study of Mus musculus with 36 samples.

Results

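The 6 genes described here encode transcription factors of the Th2 fate of CD4 helper T cells, namely Gata3, Maf, Pparg, Stat6, Nfil3 and Bhlhe41. They were chosen by symbol, and all 6 were found among the 45706 genes of the count tables by their Ensembl identifiers in GENCODE M21. Bulk RNA was sequenced in 36 libraries of mouse CD4 T cells, of which 28 fall into 10 labelled groups. WT cells came from C57BL/6J mice and KO cells from the strain C57BL/6J-Ets1-SE-KO, named for the loss of an Ets1 super-enhancer. Neither the deletion's coordinates, the age of the mice nor the Th2 culture is given in the sources used here. All cells came from spleen, where naive CD4 T cells were enriched by beads that remove other cell types. Naive cells gave 2 WT and 2 KO libraries. A first set of cultures gave 3 libraries each of WT Th1, KO Th1, WT Th2 and KO Th2 cells. Th1 cells were grown for 6 days on plate-bound antibody to CD3 with interleukin 12 at 10 ng/mL, interleukin 2 at 1 ng/mL and antibody to CD28. A second Th1 experiment gave 2 untransduced WT and 2 untransduced KO libraries, 4 libraries of WT cells that received an empty retrovirus (EV), and 4 of KO cells whose retrovirus carried Ets1 (Ets1-RV). Libraries of that experiment with the same B number in their titles were summed for tests, so that n = 2 in each group. In the other sets every library has B number 1 and only the T number differs, so the spread that p-values rest on may be technical.

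The other 8 libraries, all of the second experiment, carry titles that contradict their transduction labels. In 4 of them the title says KO with EV and the name of the deposited file says WT with Ets1-RV, and in the other 4 the title says WT with Ets1-RV and the file name says KO with EV. The transduction label names the same virus as the file name in 20 of 20 libraries of the second experiment that carry one. The long noncoding RNA gene Gm27162 near Ets1 had no count in any library labelled KO of the 10 groups. It also had no count in the 4 of these 8 whose files are named KO, although their strain label is WT, and it had 2.65, 2.97, 4.90 and 3.796 CPM (counts scaled by the library's total gene count) in the 4 whose files are named WT. The values of all 8 are given below by file name, library by library, with no mean and no test.

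In a CD4 T cell that receives interleukin 4, the receptor activates STAT6, which enters the nucleus and raises transcription of Gata3. GATA3 opens and activates the cluster of genes for interleukins 4, 5 and 13 and opposes T-bet, the factor of the Th1 fate that drives interferon gamma. c-Maf, the product of Maf, acts on the interleukin 4 gene and in several helper fates on the interleukin 10 gene. PPARγ is a nuclear receptor for lipids that supports Th2 effector function, NFIL3 is a basic leucine zipper factor that acts on several cytokine genes, and BHLHE41 is a helix-loop-helix factor induced in Th2 cells. ETS1 belongs to the ETS family, whose members bind DNA around a GGAA core, and is one of the factors needed for interferon gamma in Th1 cells.

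Gata3 lies on the minus strand of chromosome 2, from 9857078 to 9890034 of GRCm38, and is annotated as protein-coding. Because the strain affects a gene of the ETS family, the stretch before the RefSeq start of Gata3 is shown with TTCCGG or its complement CCGGAA in capitals. These letters are a longer form of the ETS core. Other copies of GGAA or its complement TTCC stand in both stretches printed here and are not in capitals. It covers chr2:9878601-9878850 of GRCm38.p6, minus strand, and overlaps no annotated exon, but 3 of 6 annotated Gata3 transcripts begin farther upstream and span it as intron. Beside it stands the same stretch of Stat6, chr10:127642736-127642985, plus strand, which holds neither TTCCGG nor CCGGAA and lies outside of all annotated transcripts of the gene.
Gata3: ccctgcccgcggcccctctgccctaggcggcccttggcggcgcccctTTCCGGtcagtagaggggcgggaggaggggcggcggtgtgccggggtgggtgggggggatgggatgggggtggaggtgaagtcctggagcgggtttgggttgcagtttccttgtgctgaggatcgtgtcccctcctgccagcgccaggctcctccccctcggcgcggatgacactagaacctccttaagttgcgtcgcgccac
Stat6: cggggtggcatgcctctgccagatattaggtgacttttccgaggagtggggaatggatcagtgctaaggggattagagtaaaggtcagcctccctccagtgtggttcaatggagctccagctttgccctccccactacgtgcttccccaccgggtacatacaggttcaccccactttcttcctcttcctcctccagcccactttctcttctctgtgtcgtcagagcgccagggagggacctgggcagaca
The TTCCGG in the Gata3 stretch begins 203 bases before the start. Of 7 RefSeq starts of 5 of the 6 factors, 1 has this longer form on either strand within 250 bases upstream, against 12.03% of 32851 starts in the RefSeq table. The match describes these letters only.

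Naive libraries held 5069623 to 5852673 gene counts, those of the first cultures 7311614 to 10256407, and labelled libraries of the second experiment 1813288 to 6844944. Ets1 itself was 706 and 709 CPM in naive KO cells against 1813 and 1807 CPM in naive WT cells. In the first cultures Ets1 was 561 to 622 CPM in KO Th1 against 748 to 851 CPM in WT Th1 cells, with a log2 fold change of -0.45 ± 0.06 (SE). Summed levels of 4 T cell markers were 703 to 1831 CPM over all groups, with none at 0. Interferon gamma RNA (Ifng) was 195 to 976 CPM in first Th1 libraries and 0 to 2.33 CPM in Th2 libraries. The lists of genes below are groupings from textbook knowledge.

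Gata3 was most abundant in Th2 cells, where KO libraries had 429 ± 8.86 CPM (SD, n = 3) and WT libraries 400 ± 25.5 CPM. KO Th1 cells followed with 272 ± 80.0 CPM and WT Th1 cells with 152 ± 57.9 CPM (SD, n = 3 each), then naive KO cells with 114 ± 1.35 CPM and naive WT cells with 96.9 ± 9.04 CPM (SD, n = 2 each). The second Th1 experiment lay lowest, with 53.0 ± 30.5 CPM in KO Ets1-RV, 30.7 ± 12.7 CPM in untransduced KO, 11.3 ± 0.703 CPM in untransduced WT and 8.60 ± 0.173 CPM in WT EV cells (SD, n = 2 each). With libraries of a B number summed, the neighbours whose ranges overlapped were the 2 genotypes of Th2 cells, the 2 genotypes of first Th1 cells, WT Th1 and naive KO cells, and KO Ets1-RV and untransduced KO cells. The Th1 cells of the first and the second set thus had very different Gata3 levels. The sets were treated as separate, and culture and sequencing cannot be told apart between them.

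Per kilobase of exon, which allows levels of different genes to be compared, Nfil3 was the most abundant of the 6 in WT Th2 cells with 203 CPM per kb. Gata3 had 101, Stat6 46.8, Pparg 18.7, Maf 9.54 and Bhlhe41 0.708 CPM per kb there. In naive WT cells the order began with Stat6 at 39.6 and Gata3 at 24.4 CPM per kb, while Nfil3 had 6.25 and Pparg 0.0579 CPM per kb. Naive cells thus held the RNA of the signal transducer and of Gata3, with hardly any of Pparg.

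**Figure D1:**
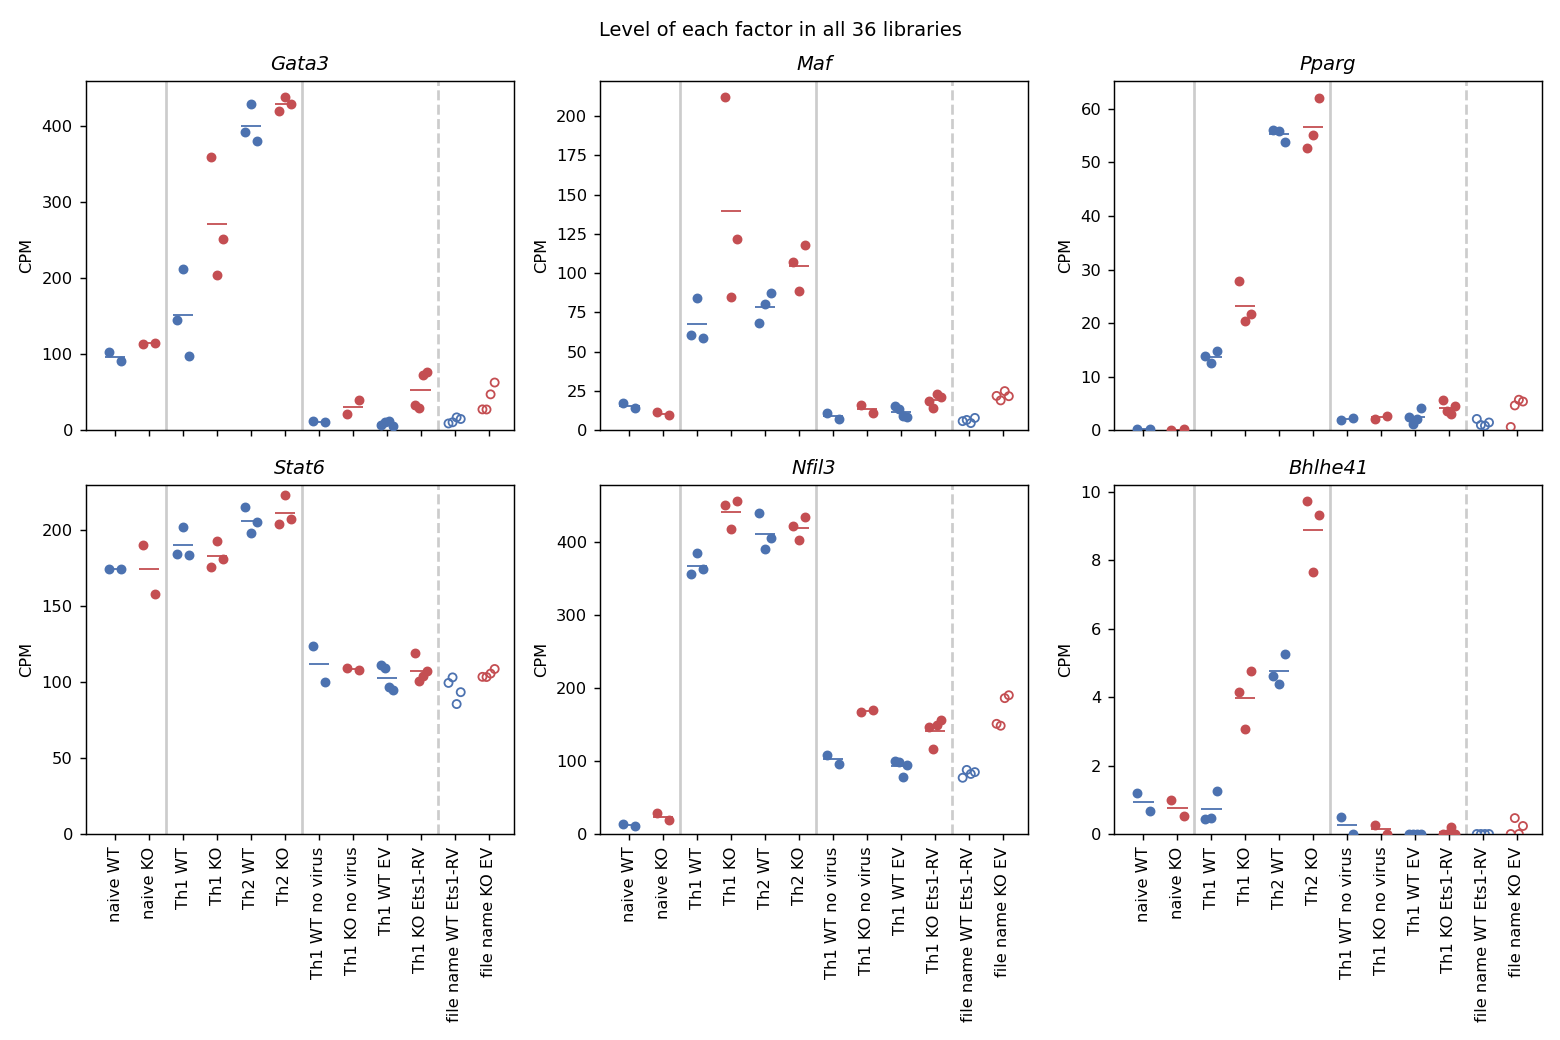
CPM of each of the 6 factors (vertical axis, linear from 0) in every library, blue for WT and red for KO; short lines are group means with libraries of 1 B number summed, and open circles are the 8 libraries whose title and labels disagree, placed by file name. Gata3, Pparg and Bhlhe41 are highest in Th2 cells, and Nfil3 is lowest in naive cells, at 11.1 to 29.0 CPM.

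Between WT Th1 and WT Th2 cells, Gata3, Pparg and Bhlhe41 were far lower in Th1 cells, Nfil3 and Stat6 slightly lower, and Maf did not pass the test. Gata3 was 145, 213 and 97.6 CPM in WT Th1 libraries and 392, 429 and 380 CPM in WT Th2 libraries, without overlap, a log2 fold change of -1.47 ± 0.20 (SE, adjusted p = 1.76e-05). Pparg was 13.9, 12.6 and 14.7 CPM against 56.1, 55.9 and 53.8 CPM, a log2 fold change of -2.07 ± 0.12 (adjusted p = 3.00e-10). Bhlhe41 rested on 21 counts in all WT Th1 libraries and 106 in all WT Th2 libraries, and its log2 fold change was -2.73 ± 0.34 (adjusted p = 6.50e-06). For Nfil3 the log2 fold change was -0.23 ± 0.07 (adjusted p = 0.0107), and for Stat6, the signal transducer of the interleukin 4 receptor, it was -0.19 ± 0.07 (adjusted p = 0.0363). Both of these small differences lost the call with raw library totals, at adjusted p = 0.0617 for Nfil3 and 0.204 for Stat6, and when WT Th1 library 1 or WT Th2 library 1 was left out; that of Stat6 was also lost without WT Th1 library 3 or WT Th2 library 3 and with no filter on low counts (0.163). Maf was 60.6, 84.2 and 58.9 CPM in WT Th1 and 68.2, 80.6 and 87.2 CPM in WT Th2 libraries (log2 fold change -0.29 ± 0.23, adjusted p = 0.389), so the ranges overlapped. Thus 5 of 6 factors were called lower in Th1 cells and none higher. Of all 12616 genes tested 29.5% were called, 15.8% lower and 13.7% higher.

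In KO cells the same contrast gave 4 of 6 factors lower in Th1 and none higher, against 9.51% of all genes lower and 8.01% higher (17.5% called). Gata3 had a log2 fold change of -0.70 ± 0.20 (adjusted p = 0.0183), Pparg of -1.33 ± 0.11 (adjusted p = 6.85e-08), Bhlhe41 of -1.19 ± 0.24 (adjusted p = 0.00145) and Stat6 of -0.24 ± 0.07 (adjusted p = 0.0134). The Gata3 call was lost with DESeq2 (adjusted p = 0.0916) and without KO Th1 library 2 or 3 or KO Th2 library 2 or 3 (adjusted p 0.0539 to 0.118), and the Stat6 call without KO Th1 library 1 (0.0501) or KO Th2 library 2 (0.0837). Nfil3 (0.04 ± 0.06, adjusted p = 0.758) and Maf (0.38 ± 0.22, adjusted p = 0.277) did not pass. Maf was called without KO Th1 library 2, at 0.64 and adjusted p = 0.0337, and fell to -0.06 without KO Th1 library 1.

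Compared with naive WT cells, WT Th2 cells had more RNA of all 6 factors and WT Th1 cells had more of 4. State and any difference between the sets in handling or sequencing cannot be told apart here. Most genes were called, with 76.9% of 14029 in Th2 cells (40.2% higher) and 76.1% in Th1 cells (40% higher). Nfil3 went from 14.2 and 11.1 CPM in naive cells to 390 to 439 CPM in Th2 cells, a log2 fold change of 4.999 ± 0.13, and to 356 to 384 CPM in Th1 cells (4.78 ± 0.13). Pparg had 2 counts in all in naive WT libraries, and 1230 in Th2 and 390 in Th1 libraries. Its pooled CPM was 323 times as high in Th2 cells (95% interval 89.3 to 2671, counting error only) and 80.7 times as high in Th1 cells (22.2 to 668). Maf rose by a similar amount in both fates, with log2 fold changes of 2.30 ± 0.30 in Th2 and 2.03 ± 0.30 in Th1 cells. Gata3 rose by 2.02 ± 0.22 on the log2 scale in Th2 cells. In Th1 cells its difference was 0.57 ± 0.21 (adjusted p = 0.0193), where the median of all genes stood at 0.10, and that call was lost with DESeq2 (0.105), without naive WT library 2 (0.117) and without WT Th1 library 2 (0.231). Bhlhe41 was called only in Th2 cells (2.30 ± 0.43, adjusted p = 3.86e-05; Th1 -0.42 ± 0.57, adjusted p = 0.51). Stat6 differed little, by 0.22 ± 0.08 in Th2 cells (adjusted p = 0.0134) and 0.04 ± 0.08 in Th1 cells (adjusted p = 0.612).

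In Th1 cells of the first cultures, 5 of the 6 factors were called higher in KO than in WT cells and none lower, where 3.66% of all 12616 genes were called, 2.16% higher and 1.51% lower. The median log2 fold change of the 6 was 0.79, and that of all genes tested 0.003. Because RNA was measured in bulk, a larger share of cells with Th2 features and more RNA per cell cannot be told apart. Bhlhe41 had 4.14, 3.05 and 4.77 CPM in KO Th1 libraries and 0.430, 0.458 and 1.27 CPM in WT Th1 libraries, and every KO library lay above every WT library. Its log2 fold change was 2.40 ± 0.34 (adjusted p = 0.000659), from 111 against 21 counts, a ratio of pooled CPM of 5.38 (95% interval 3.35 to 9.03, counting error only). Pparg had 27.8, 20.3 and 21.7 CPM in KO and 13.9, 12.6 and 14.7 CPM in WT libraries, again without overlap (log2 fold change 0.75 ± 0.12, adjusted p = 0.00205). These calls of Bhlhe41 and Pparg held under each alternative run.

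The rise of Gata3 itself was less even. Its levels were 360, 204 and 251 CPM in KO Th1 libraries 1, 2 and 3 and 145, 213 and 97.6 CPM in WT Th1 libraries, so that KO library 2 lay below WT library 2. The log2 fold change was 0.84 ± 0.20 (adjusted p = 0.0227), and the call was lost with DESeq2 (adjusted p = 0.0872) and without WT library 1 (0.115), WT library 3 (0.0603) or KO library 1 (0.131). Maf had 212, 85.0 and 122 CPM in KO and 60.6, 84.2 and 58.9 CPM in WT libraries, with a log2 fold change of 1.03 ± 0.23 (adjusted p = 0.0145). KO library 1 set much of that value: without it the log2 fold change of Maf was 0.60 (adjusted p = 0.0646), and without WT library 1 the adjusted p was 0.0873. Nfil3 was 450, 418 and 456 CPM in KO and 356, 384 and 362 CPM in WT libraries, a small difference without overlap (0.26 ± 0.06, adjusted p = 0.0306). It lost the call without WT library 1 (0.150) or 3 (0.0727) and without KO library 1 (0.123) or 3 (0.0994). Stat6 had 175, 193 and 181 CPM in KO and 184, 202 and 183 CPM in WT libraries (-0.06 ± 0.07, adjusted p = 0.718).

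In each genotype the first Th1 library with the most Gata3 had the least interferon gamma RNA. KO Th1 library 1 had the highest Gata3, Maf and Pparg of its group and 195 CPM of Ifng, against 372 and 289 CPM in libraries 2 and 3. WT Th1 library 2 had the highest Gata3 and Maf of its group and 540 CPM of Ifng, against 976 and 699 CPM. Markers of gamma-delta T cells moved the other way from the factors, with 4 of 4 tested genes lower in KO Th1 cells and summed levels of 4.11 to 9.58 CPM in KO and 19.1 to 32.5 CPM in WT libraries. The CD8 T cell marker Cd8b1 moved the same way as the factors (0.75 ± 0.20, adjusted p = 0.0422), with 7.68 ± 1.51 CPM in KO and 4.54 ± 0.841 CPM in WT Th1 cells (SD, n = 3 each). The other CD8 marker, Cd8a, was not tested, and its level lay the other way, at 0.578 ± 0.166 CPM in KO and 1.07 ± 0.378 CPM in WT Th1 cells. The part of these cells in the result was not tested. Foxp3, which defines regulatory T cells, another cell type that uses Gata3, was at 2.48 CPM in KO Th1 library 1, at 0.211 and 0.507 CPM in KO libraries 2 and 3, and at 0.538 to 0.975 CPM in WT Th1 libraries. None of 3 tested regulatory T cell markers was called.

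**Figure D2:**
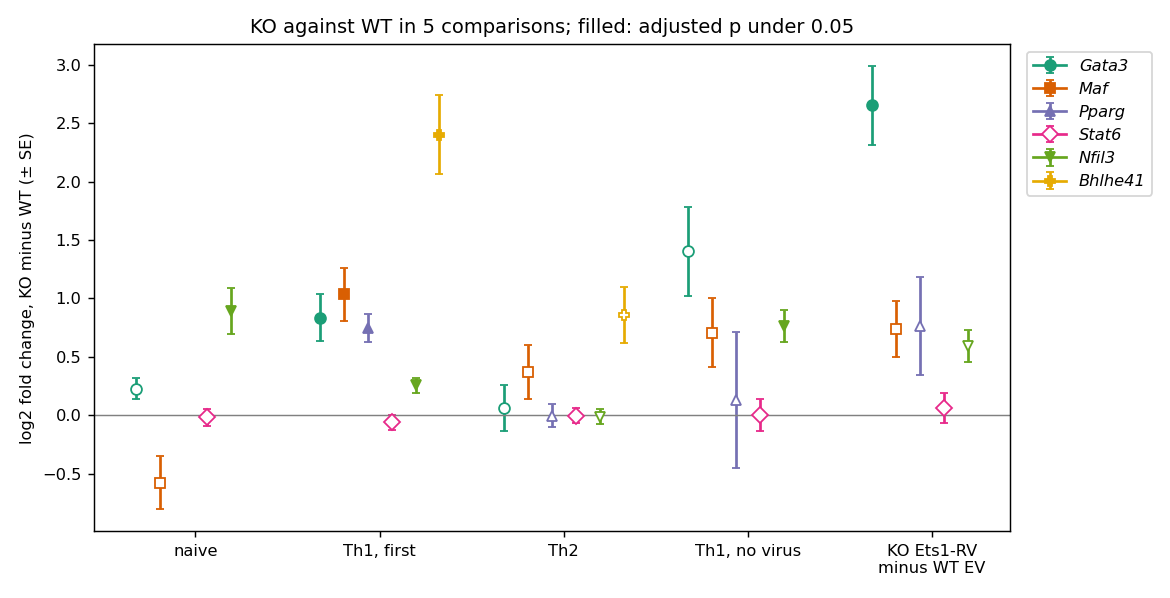
Log2 fold change of KO against WT cells (vertical axis, bars ± SE) for each factor in 5 comparisons, filled where the adjusted p was under 0.05; the rightmost comparison also differs in the insert of the virus. In first Th1 cells 5 of 6 symbols are filled and above 0, and in Th2 cells none is filled.

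In Th2 cells none of the 6 factors was called between KO and WT cells with the filter on low counts, by edgeR or by DESeq2, and at an unadjusted p under 0.05 there was 1, Bhlhe41. Without the filter edgeR called Maf (adjusted p = 0.00415) and Bhlhe41 (0.0185). Few genes were called at all in this comparison (0.325% of 12616). Gata3 was 420, 438 and 430 CPM in KO and 392, 429 and 380 CPM in WT Th2 libraries (log2 fold change 0.06 ± 0.19, adjusted p = 0.966). Bhlhe41 had 9.72, 7.65 and 9.31 CPM in KO against 4.62, 4.38 and 5.27 CPM in WT libraries, and the groups did not overlap (0.86 ± 0.24, adjusted p = 0.171). Maf was 107, 88.9 and 118 CPM against 68.2, 80.6 and 87.2 CPM (0.37 ± 0.23, adjusted p = 0.682), also without overlap. Pparg (0.00 ± 0.10), Stat6 (0.00 ± 0.07) and Nfil3 (-0.01 ± 0.06) lay close to 0.

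Whether the KO effect itself differed between the fates was tested directly, and edgeR called none of the 12616 genes (1225 at an unadjusted p under 0.05; DESeq2 called 20). The difference of effects, Th1 minus Th2, was 0.75 ± 0.16 for Pparg (adjusted p = 0.197, and 0.0433 with DESeq2), 1.54 ± 0.43 for Bhlhe41 (adjusted p = 0.283) and 0.77 ± 0.28 for Gata3 (adjusted p = 0.392). For Maf it was 0.66 ± 0.32, for Nfil3 0.27 ± 0.09 and for Stat6 -0.06 ± 0.09. With no filter on low counts edgeR called this difference for 4 factors, Gata3 (adjusted p = 3.05e-10), Maf (8.48e-05), Pparg (0.00123) and Bhlhe41 (0.0295). The value of Gata3 stayed at 0.77 in that run while its SE went from 0.28 to 0.10, and the SE of Maf went from 0.32 to 0.12. These 2 calls thus rest on a smaller estimate of the spread between the same libraries. Whether a difference of KO effects was called depended on the filter and the tool, and no conclusion is drawn from it.

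Other genes of the Th2 pathway were examined by list in KO Th1 cells. Of 8 Th2 cytokines and secreted products, 3 rose and none fell: Il13 by 1.11 ± 0.27 (log2, adjusted p = 0.0243), Il10 by 1.09 ± 0.23 (adjusted p = 0.0126) and Il4 by 0.93 ± 0.23 (adjusted p = 0.029). The median of the 8 was 0.58. Of 6 tested Th2 cell receptors only Ccr8, a chemokine receptor, was called (1.12 ± 0.19, adjusted p = 0.00288). None of 12 genes of interleukin 4 signalling (median -0.01) and none of 12 factors that oppose Th2 (median -0.001) was called in either direction. Among 13 other factors that promote Th2, only the receptor gene Notch2 was called, and it fell by 0.32 on the log2 scale (adjusted p = 0.039). In Th2 cells no tested gene of these 5 lists was called between the genotypes. Between WT Th1 and WT Th2 cells, by contrast, all 8 cytokines and products, 5 of 6 receptors and 8 of 12 signalling genes were called lower in Th1 cells, with Il9, a growth factor of mast cells, at -4.27 ± 0.46. Of all genes, 15.8% were called lower and 13.7% higher there. The 13 other factors that promote Th2 went both ways in level. Ikzf1 had 298 ± 6.11 CPM in WT Th1 and 234 ± 18.7 CPM in WT Th2 cells, and Batf 142 ± 42.4 against 273 ± 17.9 CPM (SD, n = 3 each). Of the opposing factors 6 were called higher and 2 lower in WT Th1 cells, led by Tbx21, which encodes T-bet, at 3.44 ± 0.19.

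**Figure D3:**
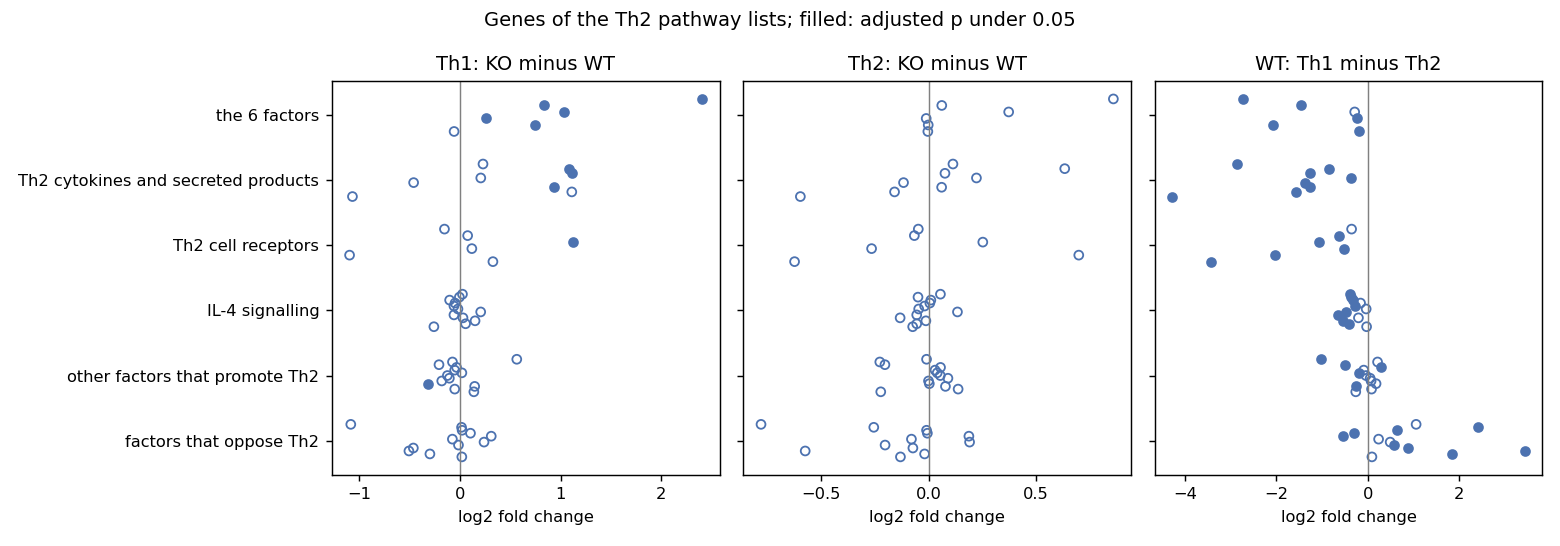
Log2 fold change (horizontal axis, a different scale in each panel) of each tested gene, 1 symbol per gene, by list, filled where the adjusted p was under 0.05. In the first panel 5 of the 6 factors and 3 of 8 cytokines and products are filled above 0, while the 12 signalling genes lie near 0.

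In naive cells Nfil3 was the only one of the 4 tested factors that was called between KO and WT cells, where 17.7% of 11246 genes were called, 8.75% higher and 8.92% lower. It had 29.0 and 18.7 CPM in KO and 14.2 and 11.1 CPM in WT libraries, without overlap (0.89 ± 0.20, adjusted p = 0.000169), and lost the call without KO library 1 (0.241) or KO library 2 (0.0541). Gata3 was 113 and 115 CPM in KO and 103 and 90.6 CPM in WT libraries (0.23 ± 0.09, adjusted p = 0.062). Maf was 11.4 and 9.87 CPM against 17.5 and 14.01 CPM (-0.58 ± 0.23, adjusted p = 0.063). Stat6 was 190 and 158 CPM against 174 CPM in both WT libraries (-0.02 ± 0.08). Pparg, with 1 count in KO and 2 in WT libraries, and Bhlhe41, with 8 and 11, did not pass the filter on low counts. Genes of the Th2 lists were called in both directions. Ccr8 was higher by 3.02 ± 0.52 (adjusted p = 4.32e-07), at 6.46 ± 0.0720 CPM in KO and 0.769 ± 0.120 CPM in WT libraries (SD, n = 2 each). The other tested receptors of the list, Crlf2 and Ccr4, were not called. Batf was called higher (0.76 ± 0.17), and Irf4 (-1.56 ± 0.16), Jak3 (-1.22 ± 0.13) and Notch1 (-0.97 ± 0.07) lower, among others. The naive groups also differ in sex by their RNA, with no Xist count in KO and 466 and 498 CPM in WT libraries. Genes of stress in handling were higher in KO cells in 6 of 6 cases, with summed levels of 4282 to 4679 CPM against 2145 to 2150 CPM. Markers of other cells moved too. Regulatory T cell markers were called higher in 2 of 4 cases, with Foxp3 at 14.6 and 16.3 CPM in KO and 8.55 and 8.54 CPM in WT libraries, and summed levels of 60.8 to 69.4 CPM against 49.7 to 54.8 CPM. The markers not called, Ctla4 (-0.44 ± 0.18, adjusted p = 0.0747) and Il2ra (-0.29 ± 0.32, adjusted p = 0.604), stood lower in KO cells. The CD8 marker Cd8b1 was higher by 1.10 ± 0.17 (adjusted p = 9.04e-09), while Cd8a, which was not tested, had 0.457 ± 0.0884 CPM in KO and 1.28 ± 0.848 CPM in WT libraries (SD, n = 2 each). Erythroid markers were lower in 3 of 3 tested cases, with summed levels of 6.93 to 7.69 CPM against 21.5 to 22.1 CPM. Of the tested myeloid markers, Itgam was called higher (1.21 ± 0.34, adjusted p = 0.00386), Csf1r lower (-1.42 ± 0.48, adjusted p = 0.0224), and Lyz2 was not called. The T cell markers Cd3d (0.45 ± 0.08) and Cd3e (0.23 ± 0.06) were called higher, while Cd4 and Trac were not called. The part of the cell types in the naive results was not tested. Genotype, sex and handling cannot be told apart in this comparison.

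The second Th1 experiment also compared KO with WT cells, at n = 2. Without virus, Nfil3 had 167 and 170 CPM in KO and 109 and 96.0 CPM in WT libraries (0.76 ± 0.14, adjusted p = 0.0138). It was the only one of 5 tested factors called, against 1.24% of 11072 genes (0.605% higher, 0.632% lower), and lost the call with raw library totals (0.115) and without each library in turn (0.0768 to 0.109). Gata3 was 21.8 CPM in KO against 11.8 CPM in WT cells of B number 1, and 39.7 against 10.8 CPM in B number 2 (1.40 ± 0.38, adjusted p = 0.0881). With B number, which goes with sex by RNA here, as a term in the fit, Gata3 was called as well, at 1.47 ± 0.26 (adjusted p = 0.00802), and it was also called without the filter. Maf was 16.1 and 11.03 CPM in KO and 11.3 and 7.01 CPM in WT libraries (0.71 ± 0.30, adjusted p = 0.296). Pparg (0.13 ± 0.58, from 13 and 24 counts) and Stat6 (0.00 ± 0.14) were not called, and Bhlhe41 with 1 and 2 counts was not tested. Among the lists, the receptors Ccr8 (2.47 ± 0.49, adjusted p = 0.0231) and Ccr4 (1.21 ± 0.19, adjusted p = 0.00519) and the cytokine gene Il24 (0.68 ± 0.15, adjusted p = 0.0375) rose. These are 2 of 4 tested receptors and 1 of 4 tested cytokines and products, with none called lower. The receptor gene Il1rl1 stood at -3.27 ± 0.84 (adjusted p = 0.0682), and it was chosen after its value was seen. Trdc, a marker of gamma-delta T cells, fell by 2.80 on the log2 scale (adjusted p = 0.029), and summed levels of these markers were 1.09 to 1.10 CPM in KO, with 2 of 4 markers at 0, and 8.77 to 8.79 CPM in WT cells.

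KO cells with Ets1-RV still had more Gata3 than WT cells with EV. Gata3 was 33.6, 29.6, 73.3 and 76.2 CPM in the 4 KO Ets1-RV libraries and 6.83, 10.7, 11.9 and 5.97 CPM in the 4 WT EV libraries, so the lowest KO library was above the highest WT library. With B numbers summed, the log2 fold change was 2.65 ± 0.34 (adjusted p = 0.00248), and the call held under each alternative run. It was the only one of 5 tested factors called, where 0.56% of genes were, 0.298% higher. Genotype and the Ets1 insert differ together here and cannot be told apart. Nfil3 had 147, 116, 149 and 156 CPM against 100, 99.0, 78.0 and 94.96 CPM, without overlap (0.59 ± 0.14, adjusted p = 0.0708), and was called with DESeq2 (0.0343), with B number as a term (0.0343) and without the filter (0.0154). It was also called with libraries not summed (0.000912), but that run takes libraries of 1 B number as replicates and overstates n. Maf (0.74 ± 0.24, adjusted p = 0.257), Pparg (0.76 ± 0.42, adjusted p = 0.596) and Stat6 (0.06 ± 0.13, adjusted p = 0.928) were not called. Il13, a cytokine gene activated by GATA3, was higher by 3.05 ± 0.30 (adjusted p = 0.000321) and Ccr8 by 2.69 ± 0.39 (adjusted p = 0.00493). Not all Th2 genes stood higher, since the receptor gene Il1rl1 had 2.77 ± 0.873 CPM in KO Ets1-RV and 5.47 ± 0.0847 CPM in WT EV cells (SD, n = 2 each). Markers of gamma-delta T cells were called lower in 2 of 2 tested cases, with summed levels of 0.967 to 1.36 CPM in KO Ets1-RV and 8.66 to 16.3 CPM in WT EV cells. Their part in the comparisons of this experiment was not tested.

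Against untransduced KO cells, KO Ets1-RV cells had more Ets1 RNA (0.85 ± 0.14, adjusted p = 0.0196), and none of 5 tested factors was called, where 0.19% of genes were. Gata3 stood at 0.83 ± 0.33 (adjusted p = 0.379). Its value was 0.06 without KO Ets1-RV replicate 2, 1.30 without KO Ets1-RV replicate 1, 0.40 without untransduced KO replicate 1 and 1.25 without untransduced KO replicate 2, and edgeR without the filter called it (adjusted p = 0.00229). Maf stood at 0.42 ± 0.27 (adjusted p = 0.635) and Nfil3 at -0.30 ± 0.14 (adjusted p = 0.454). Virus and insert differ together in this comparison. Between WT EV and untransduced WT cells edgeR called none of the 11072 genes (268 at an unadjusted p under 0.05; none with DESeq2), and Gata3 stood at -0.42 ± 0.39. The gap between KO and WT cells with virus minus the gap without was 1.25 ± 0.51 for Gata3 (adjusted p = 0.991). It was 0.48 without KO Ets1-RV replicate 2, and was called without the filter (adjusted p = 0.0223). With the filter edgeR called no gene in that test (528 at an unadjusted p under 0.05; DESeq2 called 3).

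Whether Ets1-RV lowered the factors in KO cells can be described only by file name, with the 4 libraries whose files are named KO EV as the reference. Ets1 RNA was 191, 189, 269 and 252 CPM in these and 469, 446, 390 and 384 CPM in the KO Ets1-RV libraries, in the order of B numbers 1, 1, 2 and 2. Gata3 was not lower with Ets1-RV. It was 27.5 and 27.4 CPM with EV against 33.6 and 29.6 CPM with Ets1-RV in B number 1, and 47.3 and 62.8 against 73.3 and 76.2 CPM in B number 2. In both B numbers each Ets1-RV library lay above each EV library, as did those of 7.94% of 11324 genes with a mean of at least 1 CPM (6.69% when libraries were scaled by the median of gene ratios, a setting chosen after the data were examined).

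Nfil3 went the other way, with 151 and 148 CPM in EV against 147 and 116 CPM in Ets1-RV libraries of B number 1, and 186 and 190 against 149 and 156 CPM in B number 2. It was lower without overlap in both B numbers, as were 4.9% of genes (6.26% with that scaling). Over all 4 libraries the ranges of Nfil3 overlapped, and all values stayed above the 78.0 to 100 CPM of WT EV libraries. Maf was 21.9 and 19.04 CPM with EV against 18.97 and 14.1 CPM with Ets1-RV in B number 1, and 24.95 and 21.7 against 23.3 and 21.2 CPM in B number 2, where the libraries overlapped. Pparg was 0.626, 4.64, 5.71 and 5.37 CPM with EV, from 1 to 35 counts per library, and 5.73, 3.52, 3.04 and 4.61 CPM with Ets1-RV, so that the B numbers did not share an order. Stat6 overlapped in both B numbers, at 103 to 108 CPM with EV and 100 to 119 CPM with Ets1-RV. Bhlhe41 had 2 counts in all with EV and 1 with Ets1-RV.

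Counting each of the 5 factors other than Bhlhe41 once per B number, Ets1-RV was lower in 4 of 10 cases, higher in 2 and overlapping in 4. Over all genes and B numbers 19% were lower and 24.4% higher (21.8% and 21.3% with the other scaling). Under that scaling no order of Gata3, Nfil3, Maf, Pparg or Stat6 in KO cells changed. Interferon gamma RNA moved beside these values, with Ifng at 374 to 443 CPM in files named KO EV and 568 to 981 CPM in KO Ets1-RV libraries. B number went with sex by RNA in every group of this experiment, since Xist was at 0 to 0.358 CPM in B number 1 and 204 to 362 CPM in B number 2. In the 3 sets of KO cells Gata3 was higher in B number 2 than in B number 1, and the part of sex in this was not tested.

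In files named WT, Maf was 15.7, 13.4, 9.32 and 8.18 CPM with EV and 5.84, 6.59, 4.61 and 7.88 CPM with Ets1-RV, lower in both B numbers under both scalings, as were 9.01% of genes with raw totals and 4.09% with the other scaling. Gata3 was 9.02 and 10.6 CPM with Ets1-RV in B number 1, within the EV range, and 17.01 and 14.9 CPM in B number 2, above it. With the other scaling Gata3 was higher in both B numbers, as were 5.59% of genes (1.7% with raw totals). Over the 5 factors and both B numbers, Ets1-RV was lower in 6 cases and higher in 1 with raw totals, against 35.5% and 14.5% of all genes, and lower in 4 and higher in 3 with the other scaling, against 21.5% and 22.6%. Thus Gata3 was in no B number of either genotype lower with Ets1-RV than with EV.

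**Figure D4:**
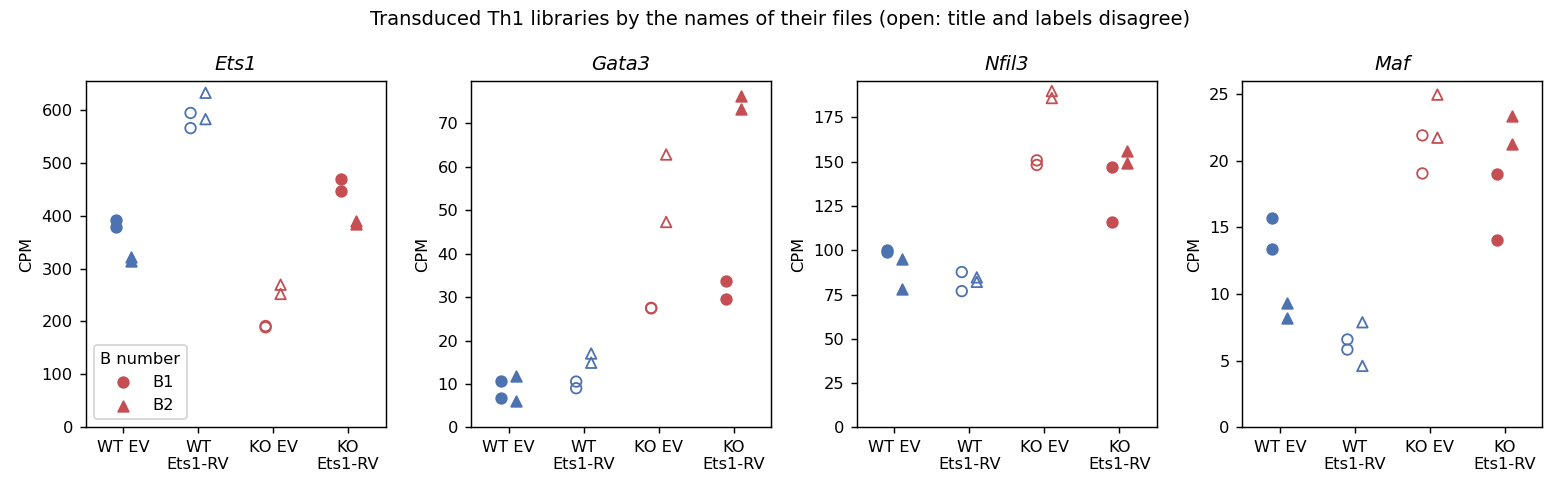
CPM (vertical axis, linear from 0) of Ets1, Gata3, Nfil3 and Maf in the 16 transduced Th1 libraries placed by file name, circles for B number 1 and triangles for B number 2, open where title and labels disagree. Within each B number the KO Ets1-RV symbols of Gata3 lie above and those of Nfil3 below the KO EV symbols.

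Over the 28 labelled libraries, the genes whose log2(CPM + 0.5) was most like that of Gata3, among 9394 genes with a mean of at least 5 CPM, were Calcrl (Pearson r = 0.966), Map2k6 (0.959), Map7 (0.958), Ubl3 (0.948) and Fchsd2 (0.947). Of the factors themselves, Stat6 reached 0.890 (rank 116), Maf 0.840, Pparg 0.645 and Nfil3 0.457. These values describe levels across 3 sets that differ in culture and depth, and possibly in sequencing, which all genes share. Calcrl, a receptor for calcitonin family peptides, had 107 ± 10.2 CPM in WT Th2 and 36.6 ± 10.4 CPM in WT Th1 cells (SD, n = 3 each), and 9.59 ± 0.287 CPM in WT EV cells (SD, n = 2).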

How the data were processed

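The authors deposited raw read counts per gene from STAR 2.5.0a on GRCm38, per the submitters' processing notes. The strand-specific libraries were counted per strand, and the column with 93.3% to 95.2% of stranded gene counts was used. The 4 summary lines took 63.6% to 76.0% of the total and were left out. GENCODE M21 gave symbols for 45143 identifiers and none for 563; the release that the authors used is not named there. CPM were computed from total gene counts. Differences were tested with edgeR 4.0.16 in R 4.3.3 (quasi-likelihood test with TMM and filterByExpr; p-values adjusted by Benjamini-Hochberg over every gene tested, called under 0.05). The SE of an edgeR log2 fold change was taken as its absolute value divided by the square root of the F statistic of its test. Naive cells, the first cultures and the second experiment were fitted apart, and naive against cultured cells jointly. Fits were tested on simulated counts. Alternatives were DESeq2 1.42.0, raw library totals, no filter, counts without strand, a replicate block, libraries not summed and leaving out each replicate. No 2 libraries of a group were identical or agreed within sampling noise. The genes and lists were chosen with earlier results of these data known. Genes named are the 6 factors, Ets1, Gm27162, the 5 most like Gata3 and genes of the lists. List genes were drawn, per list and comparison, from up to 3 called genes per direction with the largest change. Not all of those are named, above all in comparisons with naive cells, so an unnamed list gene may have been called. Ifng, Xist, Foxp3, Cd8b1, Cd8a, Ctla4, Il2ra, Ikzf1, Batf and Il1rl1 were added after values were seen.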

Additional observations from a re-analysis of the deposited data

Results flagged for a closer look

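Bhlhe41 had 0.203 CPM in 1 of the 4 KO Ets1-RV libraries, from 1 count, and 0 in the other 3, which sets that library apart by the rule used, but 1 count beside libraries at 0 shows no distance from the group. In 11 groups of 4 libraries examined this way, chance alone sets apart about 1 in 20. Gm27162, which had no count in any labelled KO group, had 2.65, 2.97, 4.90 and 3.796 CPM in the 4 unassigned libraries with a KO strain label, whose files are named WT Ets1-RV.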

How the results depend on the processing

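Over all comparisons and alternatives, 701 values of the 6 factors kept their direction and their side of the threshold, 36 lost the call, 19 gained one and 35 changed sign; the cause was not tested. With DESeq2, the number of genes called became 865 in naive KO against WT, 78 in Th2 KO against WT, 20 for the difference of KO effects between fates, 40 in KO Ets1-RV against untransduced KO and 3 for the gap with minus without virus. It called 1 factor for the difference of effects and 2 in KO Ets1-RV against WT EV. With raw totals, 47, 12 and 4 genes were called in untransduced KO against WT, KO Ets1-RV against WT EV and KO Ets1-RV against untransduced KO, with 0 factors in the untransduced comparison and 3 in WT Th1 against Th2. Without a filter, 835 genes were called in Th1 KO against WT, 224 in Th2 KO against WT, 213 for the difference of effects, 416 untransduced, 257 in KO Ets1-RV against WT EV, 17 in WT EV against untransduced, 212 in KO Ets1-RV against untransduced KO and 29 for the gap. The factors called without a filter were 2 in Th2, 4 for the difference of effects, 2 untransduced, 2 in KO Ets1-RV against WT EV, 1 against untransduced KO and 1 for the gap. The calls that Gata3 and Maf gained this way came with a smaller SE, as for Maf in Th2 cells (0.38 ± 0.09 without and 0.37 ± 0.23 with the filter). With libraries not summed, 266, 441, 126 and 6 genes were called in the untransduced comparison, KO Ets1-RV against WT EV, KO Ets1-RV against untransduced KO and the gap, with 3 factors in KO Ets1-RV against WT EV. That run takes libraries of 1 B number as replicates, so it overstates n.

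With every library kept, signs changed for these log2 values. In Th2 KO against WT, Pparg was 0.0013 with DESeq2, 0.037 with raw totals, 0.0043 without a filter and 0.0025 without strand, Stat6 was 0.036 with raw totals and 0.0026 without a filter, and Nfil3 was 0.027 with raw totals. Stat6 was -0.011 in WT Th1 against naive cells with DESeq2, and untransduced it was -0.042 with raw totals, -0.013 without a filter and -0.016 without strand. The gap of Maf was -0.034 without strand.

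The labels do not say what replicate numbers share, and the main fits do not pair samples by number. Same-numbered libraries of the first cultures correlated at -0.072 to 0.2 over 18 pairs, and 6 of 12 were closest to their own number. In the second experiment they correlated at 0.046 to 0.299 over 12 pairs, and 8 of 8 samples were closest to their own number. These correlations are of deviations from group means, which are mirror images in a group of 2 samples. The pairs and samples of the second experiment therefore repeat each other and are not independent counts. B number also went with sex by RNA in that experiment, so its main fits leave a shared difference in the spread. With the replicate number as a block, 63 genes were called in Th2 KO against WT, 212 untransduced, 95 in KO Ets1-RV against WT EV, 45 in KO Ets1-RV against untransduced KO and 1 for the gap. Under the block 2 factors were called untransduced, where Gata3 joined at 1.47 (adjusted p = 0.00802), and 2 in KO Ets1-RV against WT EV, where Nfil3 joined at 0.59 (adjusted p = 0.0343).

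Leaving out each library in turn gave 399 to 1219 genes and 0 to 1 factors called in naive cells, with Stat6 at -0.14 to 0.097. It gave 176 to 469 genes and 2 to 5 factors in Th1 KO against WT. In Th2 KO against WT it gave 14 to 50 genes, with Pparg at -0.076 to 0.041, Stat6 at -0.037 to 0.019 and Nfil3 at -0.046 to 0.029. WT Th1 against Th2 had 3 to 5 factors called, and KO Th1 against Th2 had 1380 to 2046 genes and 2 to 4 factors, with Maf at -0.059 to 0.64. The difference of effects had 0 to 3 genes. In WT Th1 against naive cells Stat6 ranged from -0.0026 to 0.073 and Bhlhe41 from -1.13 to 0.058. Untransduced, it gave 22 to 92 genes and 0 to 0 factors, with Pparg at -0.054 to 0.40 and Stat6 at -0.041 to 0.032. KO Ets1-RV against WT EV had 10 to 64 genes, WT EV against untransduced 0 to 5 with Pparg at -0.45 to 0.68, KO Ets1-RV against untransduced KO 0 to 38, and the gap 0 to 4 with Maf at -0.21 to 0.40. A sample left alone in its group was assumed to vary like the other groups. Depth limits Bhlhe41 in the second experiment and in naive cells, and Pparg in naive cells, to a few counts.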
